A study of Rattus norvegicus with 16 samples.

Results

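The genes described here are the platelet-derived growth factor (PDGF) ligands Pdgfa, Pdgfb, Pdgfc and Pdgfd, their receptors Pdgfra and Pdgfrb, the fibroblast growth factors Fgf1 and Fgf2, and the FGF receptors Fgfr1 and Fgfr2. They were found by gene symbol in the deposited count table, and all 10 of the 10 symbols were among its 14476 genes. All 10 also passed the filter on low counts that left 12857 genes for testing.

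The Masquelet technique rebuilds a bone defect by first placing a cement spacer, around which a membrane of vascular connective tissue grows. Each of 4 Sprague-Dawley rats had an osteotomy fixed with a plate on each side, with a polymethyl methacrylate (PMMA) spacer in 1 of them and nothing in the other. After 4 weeks, 1 library per rat was made from each of 4 tissues. IM is the induced membrane around the spacer, and PFNU is the tissue of the empty osteotomy, which the labels call non-union. PMMA bone is bone next to the spacer, and BNED is bone next to the empty defect. All groups therefore come from operated, plated limbs, no intact bone was among them, and the limbs of a rat share its circulation. Every library is bulk poly-A RNA, so fewer cells of a type and less RNA per cell cannot be told apart.

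PDGF ligands are secreted as dimers that bind receptor tyrosine kinases on mesenchymal cells. In growing vessels, endothelial cells release PDGF-B and the pericytes and smooth muscle cells around them carry the receptor PDGFR-beta, while PDGFR-alpha marks fibroblasts and other stromal progenitors. FGF1 and FGF2 lack a classical secretion signal, are held by heparan sulphate in the matrix and activate FGF receptors. In the skeleton, FGFR1 and FGFR2 act in osteoprogenitors and osteoblasts, and activating mutations of FGFR2 in humans cause premature fusion of the skull sutures. Both receptor families signal through RAS and ERK, through PI3 kinase and through phospholipase C gamma.

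Levels are given as CPM, counts relative to the scaled library total, and a gene's level is compared between libraries only, never with that of another gene, because transcript lengths were not used. Libraries held 40472228 to 76815879 counts, so that members other than Fgf1 and Fgf2 had at least 272 counts in every library. Fgf1 had 57 to 352 counts and Fgf2 had 0 to 138. Other cell types moved with the groups: skeletal muscle markers took 1.87 to 17% of counts in IM, 5.13 to 12.6% in PFNU, 0.164 to 1.05% in PMMA bone and 0.315 to 3.58% in BNED. Erythroid markers, which come with blood and marrow, took 0.0364 to 0.155% in IM, 0.0916 to 0.459% in PFNU and 4.33 to 7.62% in BNED. In PMMA bone they took 8.19% in rat 1 and 0.458 to 1.39% in the other rats, so the PMMA bone library of rat 1 stood apart from its group. Osteoblast and osteocyte markers took 0.829 to 1.03% in PMMA bone and 0.287 to 0.803% in BNED. They took 0.0137 to 0.29% in IM and 0.037 to 0.252% in PFNU, so the membrane of rat 3 overlapped BNED. All 9 of these bone markers had counts in every group.

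A gene passed the test when its adjusted p from edgeR's quasi-likelihood F-test, with Benjamini-Hochberg adjustment over all 12857 genes, was under 0.05. Every adjusted p for a gene below comes from that test unless another tool is named. Limma-voom was run with quality weights, which give each library its own weight. Between PMMA bone and BNED, 1 of 10 members passed, Pdgfa, which was higher in PMMA bone, where 4.91% of all genes passed (3.51% higher and 1.40% lower). Between PFNU and BNED, 2 members passed, Pdgfa and Pdgfb, both higher in PFNU, where 30.2% of all genes passed (15.0% higher and 15.2% lower). Between IM and PMMA bone, 1 member passed, Fgfr2, which was lower in IM, where 22.2% of all genes passed (11.3% higher and 11.0% lower). Between IM and PFNU, 0 of 10 members passed, where 0.863% of all genes passed (0.366% higher and 0.498% lower).

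The promoters of the 3 members that passed a test in any comparison are shown here, as the RefSeq sequence of the 250 bases before the annotated start on rat assembly GRCr8. The capitals mark the GC box GGGCGG, read on either strand.
Pdgfa: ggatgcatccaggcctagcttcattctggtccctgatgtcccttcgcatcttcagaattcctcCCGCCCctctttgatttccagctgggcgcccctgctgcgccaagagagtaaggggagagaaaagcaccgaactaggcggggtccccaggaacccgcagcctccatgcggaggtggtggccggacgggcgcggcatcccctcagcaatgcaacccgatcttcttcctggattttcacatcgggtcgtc
Pdgfb: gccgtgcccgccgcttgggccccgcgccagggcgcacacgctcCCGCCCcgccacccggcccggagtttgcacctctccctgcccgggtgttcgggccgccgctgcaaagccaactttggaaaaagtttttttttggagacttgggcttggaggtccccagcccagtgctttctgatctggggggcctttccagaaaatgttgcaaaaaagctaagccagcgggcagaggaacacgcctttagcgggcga
Fgfr2: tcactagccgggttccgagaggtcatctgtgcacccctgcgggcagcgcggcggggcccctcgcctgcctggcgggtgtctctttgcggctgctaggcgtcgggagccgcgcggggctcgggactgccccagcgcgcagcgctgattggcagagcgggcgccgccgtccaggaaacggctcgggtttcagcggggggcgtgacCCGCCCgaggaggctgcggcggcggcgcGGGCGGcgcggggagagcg
The Pdgfa window lies at chr12:20759116-20759365 on the plus strand, the Pdgfb window at chr7:113438344-113438593 on the minus strand and the Fgfr2 window at chr1:194280915-194281164 on the minus strand. These coordinates belong to GRCr8 and not to rn5, the build of the counts. Fgfr2 had 2 GC boxes, at 47 to 42 and at 19 to 14 bases before the start. Pdgfa had 1 at 187 to 182 bases and Pdgfb had 1 at 207 to 202 bases before the start. Of all 33469 rat promoter windows of that length, 30.5% held a GC box. The windows were also searched on both strands for the TATA box TATAAA (in 12.9% of all windows), the AP-1 site TGANTCA (6.34%) and the RUNX site TGTGGT (14.5%), and these 3 promoters held none of those letters. Promoter windows were matched for 8 of the 10 members, and among the others Pdgfd held 1 GC box and Pdgfra 1 AP-1 site, at 35 to 29 bases before its start.

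**Figure D1:**
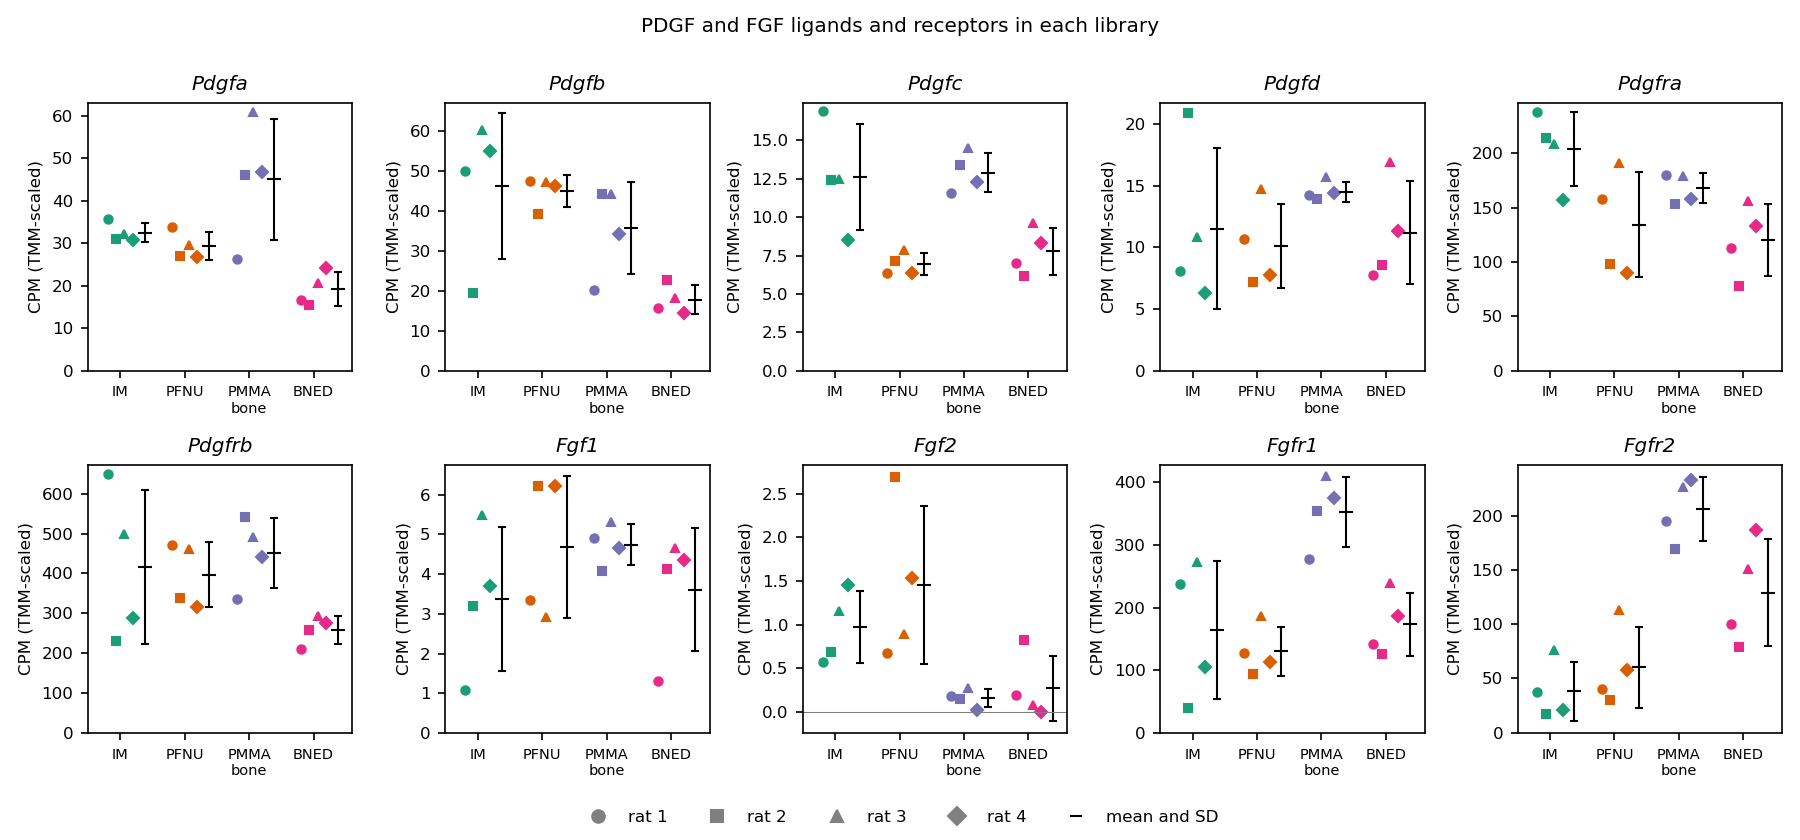
Level of each of the 10 genes in CPM in IM, PFNU, PMMA bone and BNED. Each rat has 1 symbol shape, and the mean and SD over 4 rats are in black. The y axes reach down to 0 or just below it, and the SD bar of Fgf2 in BNED extends below 0. Fgfr2 stands at 169 to 233 CPM in PMMA bone, above every IM and PFNU library, and Fgf2 stays below 3 CPM in every library.

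Pdgfa encodes the A chain, whose dimer acts on PDGFR-alpha. It had 26.4, 46.2, 60.8 and 46.9 CPM in PMMA bone of rats 1 to 4, against 16.6, 15.6, 20.7 and 24.1 CPM in BNED. PMMA bone was higher in 4 of 4 rats and the groups did not overlap, though rat 1 of PMMA bone lay just above the highest BNED library. The group means were 45.1 ± 14.2 and 19.3 ± 3.94 CPM (SD, n = 4 each), a 2.34-fold difference (log2 fold change 1.23, SE 0.21, adjusted p = 0.0174). Pdgfa did not pass without PMMA bone of rat 2, 3 or 4 or without BNED of rat 1 or 3, at adjusted p of 0.0793, 0.0682, 0.0516, 0.0875 and 0.0603. Its log2 fold change was 1.05 to 1.41 over all 16 fits that left out 1 library. Without PMMA bone of rat 1, the library with the high erythroid share, the log2 fold change was 1.41 (SE 0.17, adjusted p = 0.000554).

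In the defect tissue Pdgfa varied less. IM of rats 1 to 4 had 35.8, 31, 32.1 and 30.9 CPM, against 33.8, 27.1, 29.7 and 26.8 CPM in PFNU. The values of IM and PFNU overlapped, although IM was above PFNU within each of the 4 rats. The log2 fold change was 0.14 (SE 0.21, 95% interval -0.30 to 0.59, adjusted p = 0.816). PFNU did not overlap BNED and was 1.53-fold higher (log2 fold change 0.61, SE 0.21, adjusted p = 0.0405). That call was narrow: it was lost in 11 of 16 fits that left out 1 library, with adjusted p of 0.0501 to 0.109, and with upper-quartile scaling (adjusted p = 0.0515). It stood without IM of rat 2 or 3, PMMA bone of rat 1 or 3, or BNED of rat 4. Between IM and PMMA bone the log2 value was -0.47 (SE 0.21, adjusted p = 0.113). Without PMMA bone of rat 1 it was -0.66 (SE 0.17, adjusted p = 0.0213).

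Pdgfb encodes the B chain, which binds both PDGF receptors and recruits pericytes to new vessels. PFNU had 47.5, 39.2, 47.2 and 46.2 CPM, against 15.8, 22.6, 18.2 and 14.5 CPM in BNED. Every PFNU library was above every BNED library. The difference was 2.53-fold (log2 fold change 1.34, SE 0.31, adjusted p = 0.00487), and Pdgfb passed in all 16 fits that left out 1 library (adjusted p 0.000619 to 0.0191).

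IM had 50, 19.5, 60.2 and 55 CPM of Pdgfb, and PMMA bone had 20.1, 44.2, 44.3 and 34.2 CPM. In IM rat 2 was the low library, and in PMMA bone rat 1 was. IM and PFNU overlapped (log2 fold change 0.04, SE 0.30, 95% interval -0.60 to 0.68, adjusted p = 0.979), and with upper-quartile scaling the value was -0.01. PMMA bone and BNED overlapped through rat 1 of PMMA bone, and PMMA bone was higher in 4 of 4 rats (2.01-fold, log2 fold change 1.00, SE 0.30, adjusted p = 0.0668). Pdgfb did pass there without PMMA bone of rat 1 (log2 fold change 1.20, SE 0.29, adjusted p = 0.0109) and without IM of rat 2 (adjusted p = 0.0183).

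Vessel markers are given beside Pdgfb. Between PFNU and BNED 9 of 10 endothelial and 8 of 10 mural cell markers passed as higher in PFNU, against 15.0% of all genes. The endothelial markers together took 0.102 to 0.159% of counts in PFNU against 0.061 to 0.0759% in BNED. For PMMA bone against BNED, 4 endothelial and 5 mural cell markers of 10 each passed as higher, against 3.51% of all genes. Their summed shares there were 0.0702 to 0.13% against 0.061 to 0.0759% for endothelial markers and 0.0635 to 0.19% against 0.05 to 0.223% for mural cell markers, which overlapped. In IM the endothelial share was highest in rat 2, at 0.162% against 0.105 to 0.135% in the other membranes, although Pdgfb was lowest there. Megakaryocytes are another known source of Pdgfb transcripts, and their markers went the other way, at 0.00368 to 0.00886% of counts in PFNU and 0.0223 to 0.0257% in BNED. Their part in the Pdgfb difference was not tested.

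Pdgfc encodes a ligand with a CUB domain that has to be cut off before it can bind PDGFR-alpha. IM had 16.9, 12.4, 12.5 and 8.53 CPM, against 6.4, 7.17, 7.87 and 6.35 CPM in PFNU. All IM libraries lay above all PFNU libraries, with the gap smallest in rat 4. The difference was 1.81-fold (log2 fold change 0.86, SE 0.21) and did not pass the test (adjusted p = 0.067). DESeq2 called it (adjusted p = 0.00576), limma-voom did not, and edgeR did without IM of rat 4 (log2 fold change 1.02, adjusted p = 0.0207).

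In bone Pdgfc was also higher on the side of the spacer in 4 of 4 rats. PMMA bone had 11.6, 13.4, 14.5 and 12.3 CPM, against 7.02, 6.17, 9.63 and 8.35 CPM in BNED. The bone groups did not overlap either. The log2 fold change was 0.73 (SE 0.21, adjusted p = 0.0537), and it passed with adjusted p of 0.0237 without PMMA bone of rat 1 and of 0.0356 to 0.0412 without IM of rat 1, 2 or 4. Between IM and PMMA bone it was -0.04 (SE 0.20, adjusted p = 0.902) and between PFNU and BNED -0.16 (SE 0.21, adjusted p = 0.568). Fibroblast markers took 0.974 to 3.44% of counts in IM against 0.694 to 1.84% in PFNU, with overlap, and 0.952 to 1.77% in PMMA bone against 0.491 to 0.656% in BNED, with none. Of 8 such markers 1 passed in each of these comparisons, and their part in the Pdgfc values was not tested.

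Pdgfd encodes the other ligand with a CUB domain, which acts mainly through PDGFR-beta. It averaged 11.5 ± 6.5 CPM in IM, 10.1 ± 3.41 in PFNU, 14.5 ± 0.824 in PMMA bone and 11.2 ± 4.15 in BNED (SD, n = 4 each). All 4 groups overlapped, and IM of rat 2, at 20.9 CPM, was its highest library. Adjusted p was 0.506 to 0.855 in the 4 comparisons. The Pdgfd gene overlaps Ddi1 in the RefSeq annotation, and since the strand setting of the counting is not given in the sources used here, their reads may be mixed.

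Pdgfra, the receptor of fibroblasts and stromal progenitors, had 238, 214, 208 and 157 CPM in IM, against 158, 98.5, 191 and 90 CPM in PFNU. IM was above PFNU within each of the 4 rats, but the groups overlapped. The difference was 1.52-fold (log2 fold change 0.60, SE 0.25, adjusted p = 0.262). PMMA bone had 180, 153, 179 and 158 CPM, against 113, 77.7, 156 and 133 CPM in BNED. PMMA bone was the higher in 4 of 4 rats, with overlap (log2 fold change 0.49, SE 0.25, adjusted p = 0.247).

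Pdgfrb, the receptor of pericytes and smooth muscle, had 335, 541, 491 and 441 CPM in PMMA bone, against 210, 259, 293 and 275 CPM in BNED. No BNED library reached the lowest PMMA bone library, which was that of rat 1. PMMA bone was 1.74-fold higher (log2 fold change 0.80, SE 0.29), which did not pass (adjusted p = 0.112). It passed without PMMA bone of rat 1 (log2 fold change 0.92, adjusted p = 0.0443), with limma-voom (adjusted p = 0.000338) and in a fit of the 8 bone libraries alone (adjusted p = 0.027).

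In the defect tissue Pdgfrb had 650, 231, 498 and 289 CPM in IM, against 471, 338, 462 and 315 CPM in PFNU. The membranes of rats 1 and 3 were the high ones, and IM spanned the whole range of PFNU (log2 fold change 0.07, SE 0.29, 95% interval -0.53 to 0.68, adjusted p = 0.943). PFNU lay above BNED with no overlap (1.53-fold, log2 fold change 0.61, SE 0.29, adjusted p = 0.114). Pdgfrb passed there in a fit of those 8 libraries alone (0.0323) and with limma-voom (0.0155). Those settings called 43.7% and 52.3% of all genes. Mural cell markers took 0.211 to 0.518% of counts in IM, 0.285 to 0.463% in PFNU and 0.05 to 0.223% in BNED, and their part in the Pdgfrb values was not tested.

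**Figure D2:**
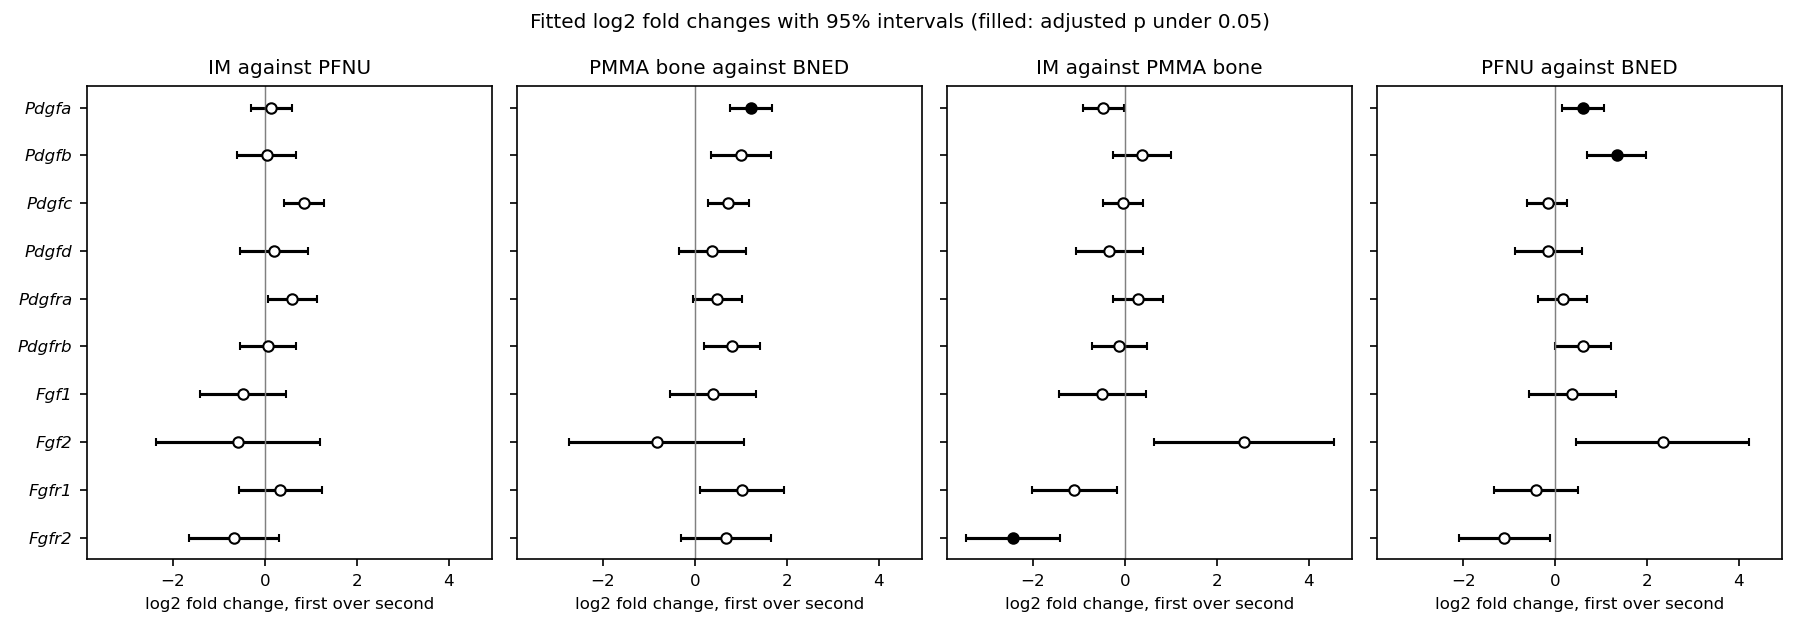
Fitted log2 fold change (x axis, the group named first over the other) of each gene in 4 comparisons, with 95% intervals and filled points where the adjusted p was under 0.05. Filled points are Pdgfa for PMMA bone against BNED, Fgfr2 for IM against PMMA bone, and Pdgfa and Pdgfb for PFNU against BNED.

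Fgf1 encodes the ligand that binds all FGF receptors. It averaged 3.37 ± 1.81 CPM in IM, 4.69 ± 1.79 in PFNU, 4.74 ± 0.514 in PMMA bone and 3.61 ± 1.55 in BNED (SD, n = 4 each). The groups overlapped throughout, with adjusted p of 0.449 to 0.681 in the 4 comparisons. BNED of rat 1, at 1.3 CPM, lay below the other BNED libraries at 4.13 to 4.65 CPM. Fgf1 overlaps Arhgap26 in the RefSeq annotation, with the same limit on strand as Pdgfd.

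Fgf2, which encodes basic FGF, a mitogen of fibroblasts and endothelium that is stored in the matrix, had few counts in every library. IM had 0.576, 0.686, 1.16 and 1.46 CPM, against 0.187, 0.153, 0.271 and 0.0283 CPM in PMMA bone. IM did not overlap PMMA bone and was higher in 4 of 4 rats. The difference was 6.04-fold (log2 fold change 2.59, SE 0.92, adjusted p = 0.0541), just outside the threshold. It passed with DESeq2 (adjusted p = 0.0135) and limma-voom (adjusted p = 0.0303), and in edgeR without IM of rat 1 (adjusted p = 0.0428) or without BNED of rat 2 or 4 (0.0281 and 0.0273). PMMA bone of rat 4 had 2 counts and no PMMA bone library had more than 18.

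PFNU had 0.671, 2.69, 0.893 and 1.54 CPM of Fgf2, against 0.19, 0.821, 0.0809 and 0 CPM in BNED. BNED of rat 4 had 0 counts, which allows up to 0.0656 CPM. PFNU was the higher in 4 of 4 rats, with overlap through BNED of rat 2 (log2 fold change 2.34, SE 0.88, adjusted p = 0.0563). With rat as a block it passed (log2 fold change 2.64, SE 0.92, adjusted p = 0.0479), as it did without BNED of rat 2 (log2 fold change 3.92, SE 0.92, adjusted p = 0.00684). The intervals of Fgf2 between IM and PFNU (-2.36 to 1.20 on the log2 scale) and between PMMA bone and BNED (-2.75 to 1.08) were wide, and neither difference passed.

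Fgf2 overlaps Nudt6, its antisense partner, in the RefSeq annotation, and without the strand setting their reads cannot be told apart. Nudt6 averaged 4.02 ± 1.32 CPM in IM, 4.22 ± 1.41 in PFNU, 2.58 ± 0.326 in PMMA bone and 3.33 ± 0.508 in BNED (SD, n = 4 each). Of 12 skeletal muscle markers 8 were higher and 3 lower by the test in IM than in PMMA bone. In PFNU 7 of them were higher and 0 lower by the test than in BNED. Over all genes the shares were 11.3% higher and 11.0% lower in IM, and 15.0% higher and 15.2% lower in PFNU. The part of the muscle markers in the Fgf2 values was not tested.

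Fgfr2, a receptor of osteoprogenitors and of epithelia, gave the largest fitted difference of the members that passed. IM had 37.4, 17, 76.3 and 20.8 CPM, against 195, 169, 226 and 233 CPM in PMMA bone. Even the highest membrane, that of rat 3, was far below the lowest PMMA bone library. IM was at 0.184 of the PMMA bone level (log2 fold change -2.44, SE 0.49, adjusted p = 0.00409), and Fgfr2 passed in all 16 fits that left out 1 library (log2 fold change -3.04 to -2.20, adjusted p 0.00109 to 0.0122).

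In the limb with the empty defect, PFNU had 39.7, 30.1, 113 and 57.5 CPM of Fgfr2, against 99.7, 78.9, 151 and 187 CPM in BNED. PFNU was lower in 4 of 4 rats, and rat 3 of PFNU made the groups overlap. The log2 fold change of -1.10 (SE 0.47) did not pass (adjusted p = 0.0833). It passed with rat as a block (log2 fold change -1.23, SE 0.32, adjusted p = 0.0139) and without PFNU of rat 3 (log2 fold change -1.61, adjusted p = 0.0204) or IM of rat 3 (adjusted p = 0.0461).

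Between the limbs, Fgfr2 was lower in IM than in PFNU within each rat (log2 fold change -0.67, SE 0.46, adjusted p = 0.533) and higher in PMMA bone than in BNED within each rat (0.67, SE 0.46, adjusted p = 0.391). Neither difference passed. In IM and in PFNU the share of osteoblast and osteocyte markers was highest in the library with the most Fgfr2, that of rat 3, at 0.29% in IM and 0.252% in PFNU. The share was 0.0137 to 0.0642% in the other membranes and 0.037 to 0.0942% in the other PFNU libraries. The membrane of rat 1 had the lowest share, 0.0137%, though at 37.4 CPM it had more Fgfr2 than those of rats 2 and 4. In PMMA bone and BNED the share of these markers was highest in rat 3, at 1.03% and 0.803%. Fgfr2 was highest there in rat 4, at 233 and 187 CPM. By the test 4 of 9 such markers were lower in IM than in PMMA bone, against 11.0% of all genes. For PFNU against BNED 2 passed as lower, against 15.2% of all genes. Their part in the Fgfr2 difference was not tested.

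Fgfr1, the FGF receptor of mesenchyme and of early osteoprogenitors, had 277, 354, 409 and 374 CPM in PMMA bone, against 142, 126, 239 and 186 CPM in BNED. The bone groups did not overlap. PMMA bone was 2.04-fold higher (log2 fold change 1.03, SE 0.43, adjusted p = 0.162), which passed in a fit of the 8 bone libraries alone (adjusted p = 0.0248), with limma-voom (adjusted p = 0.00235) and without IM of rat 2 (adjusted p = 0.0458).

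Among the membranes Fgfr1 was uneven, at 238, 40.5, 273 and 106 CPM, while PFNU had 128, 94.7, 186 and 113 CPM. Rat 2 was the low membrane, as for Pdgfb, and rats 1 and 3 were the high ones, as for Pdgfrb. The membrane of rat 2 was also the lowest for genes outside the members. Lamb2 had 173 CPM there against 422 to 448, and Bcl9l had 27.2 against 80.5 to 111. For Hspa5 that membrane was the highest, at 731 CPM against 390 to 580. Whether this was a trait of the whole library was not tested. For Fgfr1, IM and PFNU overlapped (log2 fold change 0.33, SE 0.43, adjusted p = 0.781). All membranes were below all PMMA bone libraries (log2 fold change -1.10, SE 0.43, adjusted p = 0.0774), and with rat as a block Fgfr1 passed (log2 fold change -1.32, SE 0.38, adjusted p = 0.0278). It also passed without IM of rat 1 or 3 (adjusted p = 0.0351 and 0.0359).

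The spacer limb was then set against the empty limb over the members as a group. In bone, 9 of 10 members had positive log2 fold changes for PMMA bone against BNED, with a median of 0.70 against -0.01 over all genes tested. Of the marrow cells, neutrophil and B cell markers were lower in PMMA bone with no overlap. The 7 neutrophil markers took 0.0197 to 0.0526% of counts against 0.119 to 0.184% in BNED (4 lower by the test). The 6 B cell markers took 0.0164 to 0.0356% against 0.0601 to 0.0912% (3 lower). Erythroid markers overlapped, at 0.458 to 8.19% against 4.33 to 7.62%. Megakaryocyte and platelet markers did too, at 0.0127 to 0.0248% against 0.0223 to 0.0257%. Of each of these lists 0 passed. Chondrocyte markers took 0.121 to 1.44% in PMMA bone against 0.00414 to 0.66% in BNED, with overlap. The part of these markers in the members' values was not tested. Pdgfa, Pdgfc, Pdgfrb and Fgfr1 did not overlap between these groups. The share of all genes without overlap was not counted, so this says nothing about the members as a group. Pdgfa passed the test, and 5 members had an unadjusted p under 0.05, as did 3130 of the 12857 genes tested. The number that passed was 4 without PMMA bone of rat 1 (Pdgfa, Pdgfb, Pdgfc and Pdgfrb), where 19.9% of all genes passed, and 5 in a fit of the 8 bone libraries, where 14.1% did. It was 3 with DESeq2, which called 11.9% of all genes, and 5 with limma-voom, which called 48.6%, so that 5 of 10 was no more than its background. It was 0 by edgeR without PMMA bone of rat 2, 3 or 4 or BNED of rat 1 or 3, where 0 of all genes passed. In those 5 fits 2019 to 2654 genes and 4 to 6 members had an unadjusted p under 0.05.

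In defect tissue, 7 of 10 members had positive values for IM against PFNU, with a median of 0.11 against 0.01 over all genes. An unadjusted p under 0.05 was found for 2 members, Pdgfc and Pdgfra, and for 1997 of the 12857 genes tested. DESeq2 called 1 member, and 572 genes (4.46%), and limma-voom called 0 members. Over all genes 111 passed, 47 higher and 64 lower in IM, against 27 and 62 with RLE size factors and 10 and 37 with rat as a block. With upper-quartile scaling they were 19 and 63. Limma-voom called 0 genes, with 1558 at an unadjusted p under 0.05, as did edgeR on the 8 libraries of these groups alone, where 1323 had an unadjusted p under 0.05.

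**Figure D3:**
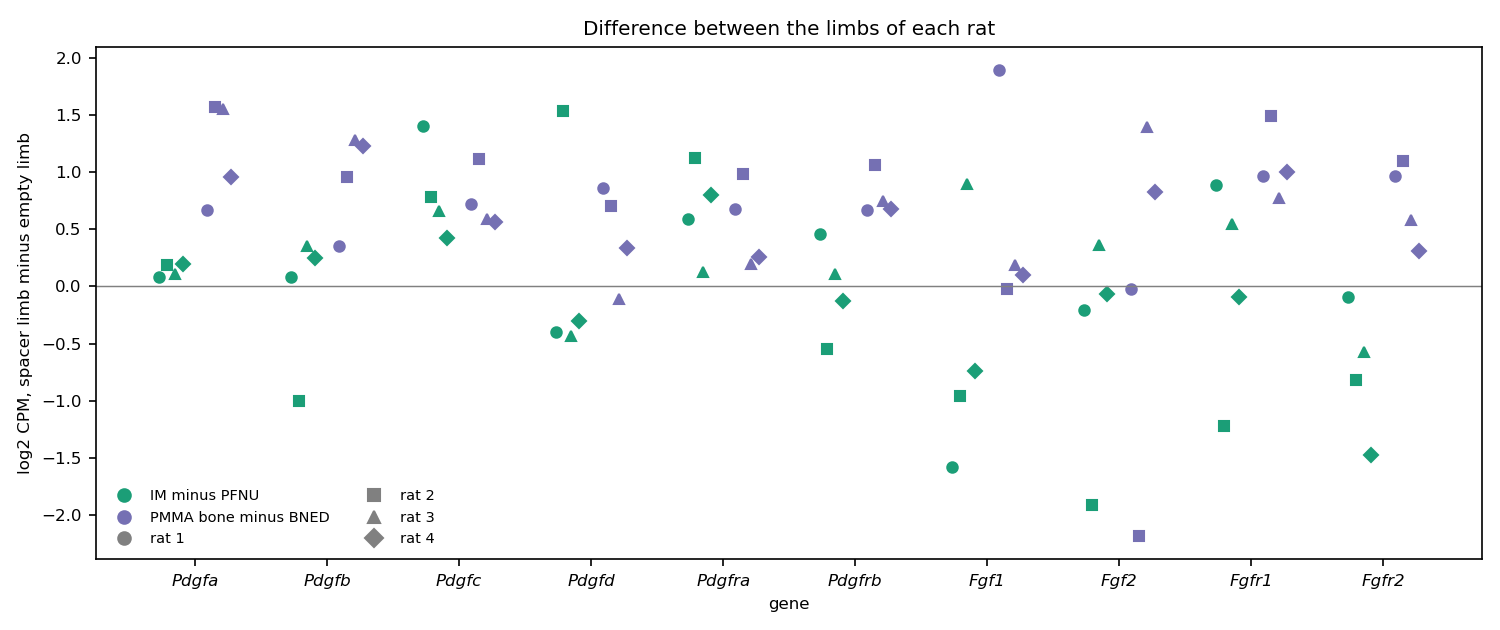
Difference in log2 CPM between the spacer limb and the empty limb of each rat (y axis), for IM minus PFNU and for PMMA bone minus BNED, with 1 symbol shape per rat. Pdgfa, Pdgfc and Pdgfra lie above 0 for both tissues in 4 of 4 rats, and Fgfr2 lies below 0 for IM minus PFNU and above 0 for PMMA bone minus BNED.

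The difference between those 2 spacer effects, that in defect tissue minus that in bone, was tested as an interaction. By edgeR 0% of all genes passed and 0 of 10 members, with 1149 genes at an unadjusted p under 0.05. DESeq2 called 136 genes and 0 members, and limma-voom called 218 genes and 1 member, Pdgfa. The unadjusted p was under 0.05 for Pdgfa (difference -1.08, SE 0.30, adjusted p = 0.262) and for Pdgfb (-0.97, SE 0.43, adjusted p = 0.526). Without PMMA bone of rat 1, the Pdgfa difference was -1.27 (SE 0.23, adjusted p = 0.0299) and 199 genes passed. For Fgfr2 the difference was -1.34 (SE 0.65, adjusted p = 0.583).

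Ratios of related genes within a library show unequal change, free of the scaling of libraries. The log2 ratio of Fgfr1 to Fgfr2 was 2.67, 1.25, 1.84 and 2.35 in IM, against 0.50, 1.07, 0.85 and 0.68 in PMMA bone. IM lay above PMMA bone in every library, so Fgfr2 was lower in IM by more than Fgfr1 was. In PFNU this ratio averaged 1.26 ± 0.49, against 0.46 ± 0.32 in BNED (SD, n = 4 each), and PFNU was above BNED in every library.

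The log2 ratio of Pdgfa to Pdgfb was -0.49, -0.53, -0.67 and -0.78 in PFNU, against 0.08, -0.54, 0.19 and 0.73 in BNED, where rat 2 lay within the PFNU values. PMMA bone, at 0.39, 0.06, 0.46 and 0.45, lay above all PFNU libraries. In IM the ratio was 0.67 in rat 2 and -0.91 to -0.48 in the other rats. The log2 ratio of Pdgfra to Pdgfrb averaged -0.93 ± 0.59 in IM, -1.61 ± 0.25 in PFNU, -1.41 ± 0.38 in PMMA bone and -1.15 ± 0.40 in BNED (SD, n = 4 each). The groups overlapped, and IM of rat 2, at -0.12, was the highest library. Ratios of Fgf1 to Fgf2 in bone rest on Fgf2 counts as low as 0 and on the prior count, and are plotted only.

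**Figure D4:**
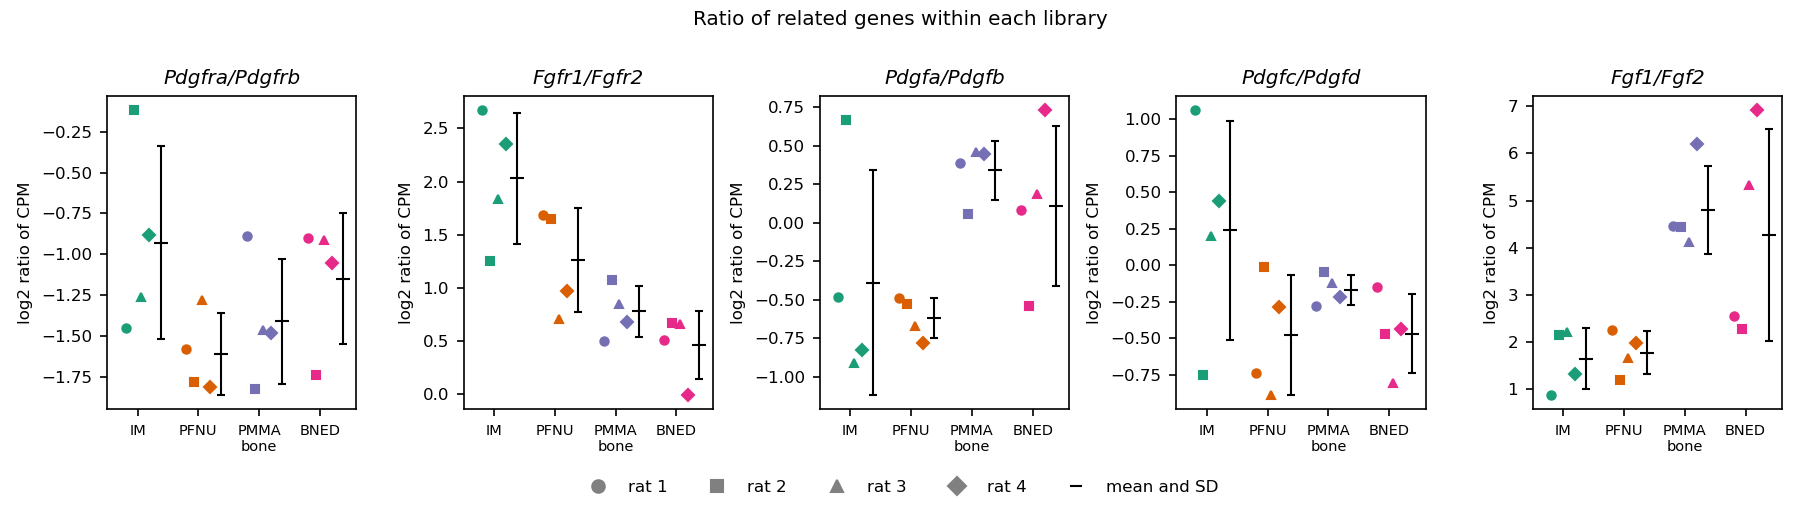
Log2 ratio of CPM of related genes within each library (y axes, prior count of 2), by group, with 1 symbol shape per rat and the mean and SD over 4 rats in black. The Fgfr1 to Fgfr2 ratio averages 2.03 in IM, 1.26 in PFNU, 0.78 in PMMA bone and 0.46 in BNED.

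The genes whose levels ran most like each member were sought among 10001 genes that averaged 5 CPM or more, by Pearson correlation of log2 CPM over 16 libraries. These correlations are a description, since the libraries share 4 rats, 4 tissues and their cell makeup. Fgfr2 ran most like Galnt3, which glycosylates FGF23 (r = 0.99), Lrp4, the receptor of sclerostin (0.98), and Runx2, the osteoblast transcription factor (0.97). After the group means were subtracted the same 3 genes led, with 0.97, 0.93 and 0.94. Runx2 had 63.3, 20.9, 101 and 15.8 CPM in IM, against 208, 181, 237 and 204 CPM in PMMA bone. As for Fgfr2, the membrane of rat 3 was the highest membrane.

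Pdgfb ran most like Lamb2, a laminin chain of vascular basement membranes (r = 0.98), Bcl9l, a cofactor of beta-catenin (0.97), and Nos3, the endothelial nitric oxide synthase (0.97). Nos3 had 69.5, 67, 57.7 and 57.1 CPM in PFNU, against 16.7, 32.2, 21.3 and 17.6 CPM in BNED. Pdgfrb ran most like Dlg4 (0.99), Ssh3 and Dnm1 (0.97 each). Pdgfa ran most like Tmem98 (0.95), Bfsp1 and Tspan11 (0.91 each).

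Pdgfc ran most like Sdc2, a heparan sulphate proteoglycan (r = 0.94), Serpinh1, the collagen chaperone (0.93), and Tmem39a (0.92). Pdgfra ran most like Galnt1 (0.92), Pdxdc1 and Dock1 (0.90 each), and Fgfr1 most like Myo1d, RGD1559896 and Pyroxd2 (0.97 each). For Fgf2 they included Nfia (0.92) and Filip1 (0.91), and for Pdgfd the chaperone Hspa5 (0.86), Kidins220 and Cp (0.84 each). Fgf1 had no gene above 0.75, the value for Lmo7, followed by Bmp4 (0.73) and Oxr1 (0.71). Between members the highest r was 0.82, for Fgfr1 and Fgfr2, which had 0.80 after subtracting group means. The highest r after that subtraction was 0.86, for Pdgfrb and Fgfr1, which had 0.63 before it.

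**Figure D5:**
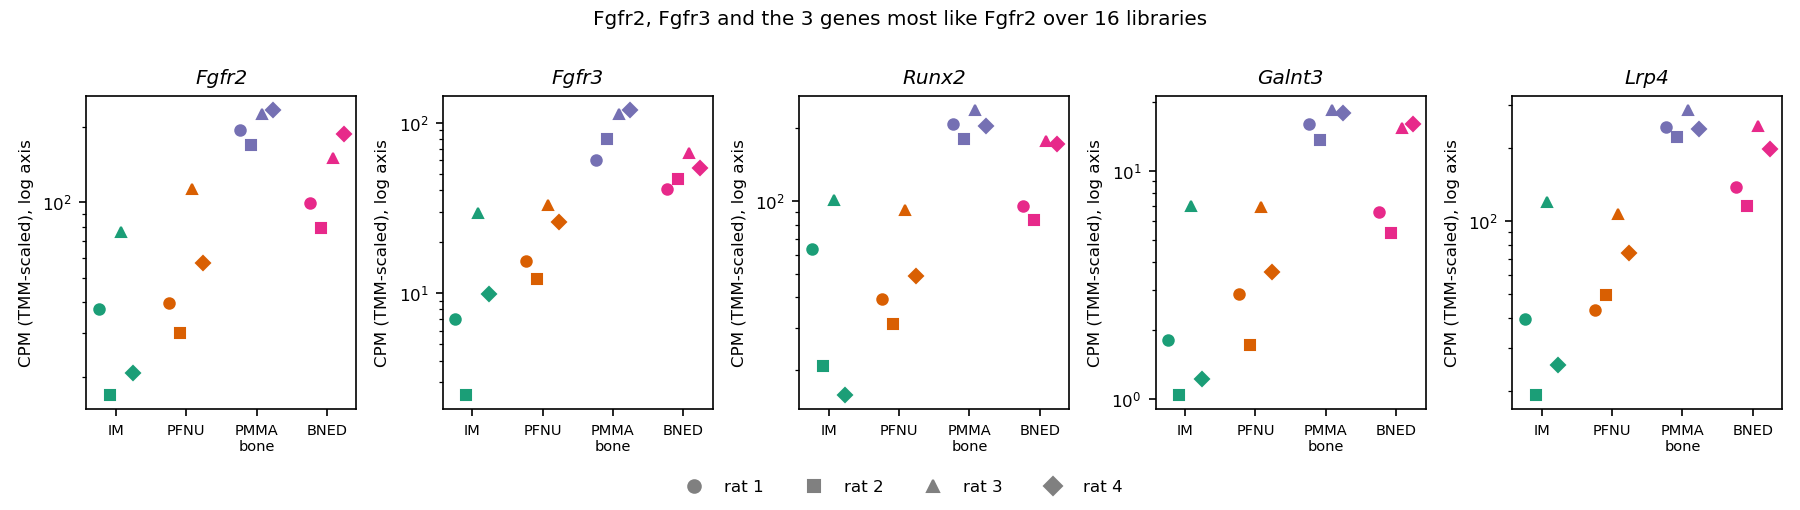
CPM on a log axis of Fgfr2, Fgfr3, Runx2, Galnt3 and Lrp4 in each library, by group, with 1 symbol shape per rat. The membrane of rat 3 is the highest of the 4 membranes in each panel.

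Other genes of these pathways were taken from lists by role. Of 16 further secreted FGF genes, 11 were in the table and 6 were tested. Fgf7, the keratinocyte growth factor that signals to FGFR2, passed between PFNU and BNED, at 21.6 ± 4.23 CPM in PFNU and 12.2 ± 2.38 CPM in BNED (SD, n = 4 each). The difference was 0.82 on the log2 scale (SE 0.22, adjusted p = 0.0112), and it passed in all 16 fits that left out 1 library. Between IM and PMMA bone, Fgf16 and Fgf10, which signals through the same FGFR2 isoform as Fgf7, were higher in IM.

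Fgf10 had 0.115, 1.66, 0.597 and 1.18 CPM in IM, against 0.0234, 0.0679, 0.0603 and 0.0425 CPM in PMMA bone (log2 fold change 4.11, SE 1.05, adjusted p = 0.0136). PMMA bone held 12 Fgf10 counts in all, so the size is uncertain. Fgf16 was higher by 3.09 on the log2 scale (SE 0.97, adjusted p = 0.0333), and lost the call without IM of rat 3 or 4 or PMMA bone of rat 1, 3 or 4 (adjusted p up to 0.0897). Fgf18, a growth factor of bone and cartilage, had 2.42 ± 0.533 CPM in IM and 1.16 ± 0.402 CPM in PFNU (SD, n = 4 each). Its value of 1.05 on the log2 scale did not pass (SE 0.49, adjusted p = 0.321).

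Of 4 intracellular FGF homologues, which bind sodium channels and are not secreted, 3 were tested. Fgf13 was higher in IM than in PMMA bone (log2 fold change 2.61, SE 0.75, adjusted p = 0.0227) and in PFNU than in BNED (2.29, SE 0.73, adjusted p = 0.029). The first call was lost without IM of rat 4 or PMMA bone of rat 1, 3 or 4 (adjusted p up to 0.0919), and the other without PFNU of rat 2 or 4 or BNED of rat 1, 3 or 4 (up to 0.0832). By the test 8 of 12 skeletal muscle markers were higher and 3 lower in IM than in PMMA bone. In PFNU 7 passed as higher than in BNED. Their part was not tested.

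Of 5 other FGF receptors and coreceptors 3 were tested. Fgfr3, the receptor that restrains growth plate cartilage, had 6.99, 2.51, 29.6 and 9.83 CPM in IM, against 60.6, 80.7, 112 and 118 CPM in PMMA bone. IM was lower with no overlap (log2 fold change -2.92, SE 0.57, adjusted p = 0.00367), and Fgfr3 passed in all 16 fits that left out 1 library. Its membrane of rat 3 was again the highest. Between PFNU and BNED the log2 fold change was -1.26 (SE 0.53, adjusted p = 0.0843). Fgfrl1, a receptor without a kinase domain, did not pass there (0.19, SE 0.35, adjusted p = 0.701).

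Proteases and proteoglycans that activate or hold these ligands were measured with 14 of 16 genes. In PMMA bone against BNED 1 passed, Gpc1, a glypican that binds FGF2. It had 298, 710, 664 and 602 CPM in PMMA bone, against 181, 252, 210 and 195 CPM in BNED. The log2 fold change was 1.44 (SE 0.24, adjusted p = 0.0174), and like Pdgfa it was lost without PMMA bone of rat 2, 3 or 4 or BNED of rat 1 or 3 (adjusted p up to 0.0875).

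By the test 3 of these 14 were higher and 3 lower in IM than in PMMA bone. In PFNU 5 passed as higher and 1 as lower than in BNED. Over all genes the shares were 11.3% higher and 11.0% lower in IM, and 15.0% higher and 15.2% lower in PFNU. Plat, the tissue plasminogen activator that cleaves PDGF-C, was higher in IM than in PMMA bone (log2 fold change 1.49, SE 0.34, adjusted p = 0.00754) and in PFNU than in BNED (1.43, SE 0.34, adjusted p = 0.0058). Plau, the urokinase that cleaves PDGF-D, averaged 89.8 ± 19.7 CPM in PFNU and 34.4 ± 7.92 CPM in BNED (log2 fold change 1.39, SE 0.29, adjusted p = 0.00293). These calls held in all 16 fits that left out 1 library.

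The syndecan Sdc3 was lower in IM than in PMMA bone in all such fits (log2 fold change -2.30, SE 0.53, adjusted p = 0.0084). Sdc1 (-1.34, SE 0.46, adjusted p = 0.0491) passed in 3 of the 16 fits that left out 1 library, which were those without IM of rat 1, PFNU of rat 3 or PMMA bone of rat 1, and the highest adjusted p was 0.161. Gpc3 was higher in PFNU than in BNED (log2 fold change 2.66, SE 0.87, adjusted p = 0.0323), and lost the call without PFNU of rat 1, 2 or 4 or BNED of rat 1, 3 or 4 (adjusted p up to 0.087). Fgfbp1, which releases FGFs from the matrix, had 1 count over the 4 IM libraries and 34 over PMMA bone, a ratio of 0.0327 (95% counting interval 0.000806 to 0.195). Of those 34 counts 22 came from PMMA bone of rat 1, and without that library the ratio was 0.0761 (0.00178 to 0.515). It had 0 counts over PFNU and 51 over BNED, at least 13.5-fold lower in PFNU with the floor of 3 counts taken over the group. Its call between IM and PMMA bone (adjusted p = 0.0413) was lost with rat as a block (0.0698) and with limma-voom (0.363), and without IM of rat 2, 3 or 4, PMMA bone of rat 1 or 3 or BNED of rat 1, 3 or 4 (up to 0.133).

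Of 20 signalling relays below the receptors 19 were tested. Hras, a RAS GTPase, was higher in IM than in PMMA bone (log2 fold change 1.61, SE 0.40, adjusted p = 0.0118) and in PFNU than in BNED (1.46, SE 0.40, adjusted p = 0.0131), in all 16 fits that left out 1 library. Map2k1, the kinase MEK1, was higher in PFNU than in BNED (0.56, SE 0.17, adjusted p = 0.0221), with the call lost without PFNU of rat 2 or BNED of rat 1 (adjusted p up to 0.0685). Src (-1.07, SE 0.34, adjusted p = 0.0385) and Pik3ca, the catalytic subunit of PI3 kinase (-0.44, SE 0.14, adjusted p = 0.0373), were lower in IM than in PMMA bone. Src lost the call without IM of rat 2 or 4, PMMA bone of rat 2 or 3 or BNED of rat 1 (adjusted p up to 0.135). Pik3ca lost it without IM of rat 2 or 4, PMMA bone of rat 1, 2 or 4 or BNED of rat 1 or 3 (up to 0.107), and with rat as a block (0.0613). In PMMA bone against BNED, Mapk3, the kinase ERK1, passed at 0.44 (SE 0.12, adjusted p = 0.045), but not with RLE size factors (0.0704), with rat as a block (0.0701) or in 13 of 16 fits that left out 1 library (up to 0.16). It stood without IM of rat 2 or 3 or PMMA bone of rat 1.

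Feedback inhibitors and targets of ERK were measured with 13 of 14 genes. Spry2, a Sprouty inhibitor of receptor signalling, was higher in IM than in PMMA bone (log2 fold change 0.91, SE 0.23, adjusted p = 0.0137) and in PFNU than in BNED (0.89, SE 0.23, adjusted p = 0.011), in all 16 fits that left out 1 library. Its relative Spry4 was lower in IM than in PMMA bone (-0.83, SE 0.25, adjusted p = 0.0274), with the call lost without PMMA bone of rat 2, 3 or 4 (up to 0.0605). Spry4 was also higher in PMMA bone than in BNED, at 30.3 ± 2.89 and 15.6 ± 5.39 CPM (SD, n = 4 each; log2 fold change 0.96, SE 0.25, adjusted p = 0.0399). That call stood in 6 of 16 fits that left out 1 library, those without any 1 of the IM libraries, PMMA bone of rat 1 or BNED of rat 4 (up to 0.149 in the others). Of the ERK phosphatases, Dusp4 was lower in IM than in PMMA bone (-1.97, SE 0.60, adjusted p = 0.0306), lost without IM of rat 4 or PMMA bone of rat 2 or 3 (up to 0.0823). Dusp5 was lower in PFNU than in BNED (-1.29, SE 0.44, adjusted p = 0.0368), lost without PFNU of rat 2, 3 or 4 or BNED of rat 1, 3 or 4 (up to 0.0997).

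In a fit of the 8 libraries of IM and PMMA bone alone, Fgfr3 (adjusted p = 0.0338) and Sdc3 (0.0492) of the pathway genes above passed, and Fgf10 and Fgfbp1 were not tested. Fgf16, Fgf13, Plat, Sdc1, Hras, Src, Pik3ca, Dusp4, Spry2 and Spry4 did not pass in it (0.0541 to 0.157). With limma-voom Src, Pik3ca and Dusp4 also lost the call (0.0513, 0.119 and 0.0832).

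Of the 58 pathway genes tested, 16 passed by edgeR between IM and PMMA bone, where 22.2% of all genes did. Between PFNU and BNED 12 of the 58 passed, where 30.2% of all genes did. Between IM and PFNU, 0 of the 58 passed by edgeR, with 9 at an unadjusted p under 0.05, and DESeq2 called 6 and limma-voom 0. Over all genes edgeR called 0.863% and DESeq2 4.46%. The most abundant genes of each list had adjusted p of 0.267 to 0.940 there. Log2 fold changes for IM against PFNU were -0.25 for Fgf7 (SE 0.21), -0.78 for Fgf13 (SE 0.70), -1.07 for Fgf11 (SE 0.82), -0.82 for Fgfr3 (SE 0.53) and -0.09 for Fgfrl1 (SE 0.35). They were 0.57 for Gpc1 (SE 0.24), -0.20 for Sdc3 (SE 0.51), 0.18 for the adaptor Shc1 (SE 0.23), -0.22 for Plcg1 (SE 0.31), 0.19 for Dusp6 (SE 0.27) and -0.09 for Etv5 (SE 0.22). Between PMMA bone and BNED 3 of the 58 passed, close to the 4.91% of all genes. There the genes of lists with no call had log2 fold changes of 0.18 for Fgf7, 0.96 for Fgf18, -1.10 for Fgf13, 0.23 for Fgf11, 0.84 for Fgfr3 and 0.77 for Fgfrl1 (adjusted p 0.187 to 0.892). In the interaction 0 of the 58 passed by edgeR, with 6 at an unadjusted p under 0.05, and DESeq2 called 1 and limma-voom 3. The most abundant genes of each list had adjusted p of 0.482 to 0.987.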

How the data were processed

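RNA-seq was deposited for 16 libraries, 4 tissues from each of 4 rats. Per the labels' protocols, the tissue went into RNAlater and its RNA was taken up in Trizol with a DNase step on the column. Libraries were stranded and selected for poly-A, with 12 PCR cycles and paired reads. Per the submitters' processing notes, the tools were TopHat2 2.0.13, Bowtie2 2.2.1, DESeq2 and FastQC 0.11.3, and the genome build was rn5. Their roles, the counting program, the annotation and the strand setting are not given in the sources used here. What the authors deposited are raw counts, in whole numbers, for each gene symbol.

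The counts were tested with edgeR 4.0.16 in R 4.3.3 (quasi-likelihood F-test, TMM scaling, filterByExpr) in a model of group means over all 16 libraries, with Benjamini-Hochberg adjustment within each comparison. All groups thus share an estimate of the spread. CPM are per TMM-scaled library, and the SE is the log2 fold change divided by the square root of F. Alternatives were DESeq2 1.42.0, limma-voom with quality weights per library (limma 3.58.1), and RLE and upper-quartile factors. Others were different filters on low counts, a block for rat, fits of the compared groups alone and each library left out. All limma-voom values here come from the weighted fit. The test was also run on simulated counts that held no effect of rat and no outlying library. That run therefore does not cover these features of the data.

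The same rat stands in every group per the labels, so its number pairs the libraries. Deviations from the group mean correlated in the rats 1 to 4 by 0.348, -0.112, -0.092 and 0.621 between IM and PFNU and by 0.09, 0.586, 0.297 and -0.104 between PMMA bone and BNED. Replicates were compared before averaging: chi-square over its degrees of freedom was at least 80.6, so none agreed within sampling noise. Counts come from PCR reads without molecular identifiers, so depth and counting intervals cover counting error only.

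All 10 members were named whatever their result. From each pathway list up to 4 called genes per comparison were named by the largest change, or the 2 most abundant where none was called, and for each member the 3 genes with the highest correlation. Some of their p-values are given as ranges, and 1 gene that this rule names is not reported here. The members, lists and alternatives were chosen with earlier results of these data known. Other genes overlapping a member, the Fgf2 partner Nudt6 among them, come from RefSeq on GRCr8.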

Additional observations from a re-analysis of the deposited data

Results flagged for a closer look

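Over the 40 combinations of member and group, 2 libraries stood apart from the other 3 of their group by Dixon's criterion, which chance alone meets in about 1 in 20 groups. Pdgfb in PFNU of rat 2, at 39.2 CPM, lay below the other PFNU libraries, at 46.2 to 47.5 CPM, and still above every BNED library. Fgf1 in BNED of rat 1, at 1.3 CPM (75 counts), lay below the other BNED libraries, at 4.13 to 4.65 CPM.

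Fgfr2 had differences of opposite sign between the limbs in the different tissues, none of which passed the test. IM minus PFNU was -0.09, -0.82, -0.57 and -1.47 (log2 CPM) in rats 1 to 4, and PMMA bone minus BNED was 0.97, 1.1, 0.58 and 0.31. The difference of these effects, -1.34 (SE 0.65), did not pass edgeR's interaction test (adjusted p = 0.583).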

How the results depend on the processing

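Of 1185 member values recomputed, 1094 kept direction and side of the threshold, 17 lost a call, 45 gained one and 29 changed sign, of which 4 were not from leaving out a library. Those 4 were Pdgfb for IM against PFNU with upper-quartile factors (-0.01), and with limma-voom Fgf2 for PMMA bone against BNED (0.15), Fgf2 in the interaction (-0.55) and Pdgfra for PFNU against BNED (-0.05). The cause was not tested. Fgf2 was not tested at a mean of at least 1 CPM.

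Members that passed numbered 1 with DESeq2 for IM against PFNU (4.46% of all genes). For PMMA bone against BNED they were 3 with DESeq2 and 5 each with limma-voom and in the fit of those groups alone. Of all genes 11.9%, 48.6% and 14.1% passed in those settings. Limma-voom gave 1 for the interaction (1.7% of all genes). For IM against PMMA bone they were 2 with rat as a replicate block, 3 with DESeq2, 3 with limma-voom and 2 in the fit of those groups alone. The shares of all genes were 21.6%, 29%, 21.6% and 7.23% in that order. For PFNU against BNED they were 1 with upper-quartile factors, 4 with the block, 4 with DESeq2 and 5 with limma-voom. Here 30.2%, 29%, 37% and 52.3% of all genes passed. Over all genes, IM against PFNU gave 47 with the block, 572 with DESeq2, 0 with limma-voom and 0 in the fit of those groups alone. PMMA bone against BNED gave 1527, 6244 and 1767 with DESeq2, limma-voom and that fit. The interaction gave 136 with DESeq2 and 218 with limma-voom, IM against PMMA bone 908 in that fit, and PFNU against BNED 6720 with limma-voom. The block changed no other call of a member.

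With 1 library left out, members passing ranged 0 to 1 for IM against PFNU, 0 to 4 for PMMA bone against BNED, 0 to 1 for the interaction, 1 to 3 for IM against PMMA bone and 1 to 3 for PFNU against BNED. Over all genes they ranged 11 to 244, 0 to 2578, 0 to 199, 1818 to 4047 and 2637 to 4755 in the same order. Signs changed within these ranges. For IM against PFNU they were Fgfr1 -0.02 to 0.66, Pdgfb -0.12 to 0.29, Pdgfd -0.26 to 0.44 and Pdgfrb -0.23 to 0.27. For IM against PMMA bone they were Pdgfc -0.21 to 0.12 and Pdgfrb -0.42 to 0.08. For PFNU against BNED they were Pdgfd -0.38 to 0.13 and Pdgfra -0.05 to 0.32, and Fgf2 was -1.24 to 0.75 for PMMA bone against BNED. In the interaction they were Fgf2 -1.33 to 0.73, Pdgfc 0.00 to 0.33, Pdgfd -0.64 to 0.08 and Pdgfra -0.04 to 0.33.

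After subtracting group means, 1 of the 3 most like genes remained for Pdgfa, Pdgfb, Pdgfc, Pdgfra and Fgf2, and 0 for Pdgfd, Fgf1 and Fgfr1. A prior count of 0.5 moved no ratio by more than its SD.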
